A study of Rattus norvegicus with 10 samples.

Results

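The genes described here are 46 genes of the cell cycle and DNA replication, listed by symbol. In whole-retina RNA of rats at postnatal day 3, 40 of the 46 were measured, among 14324 genes in all that had a probe set (a group of array probes for 1 transcript) with a single gene symbol in the platform annotation. Where a gene had several such probe sets (Ccnb2 and Rrm2), the one with the highest mean over the arrays was used. No singly named probe set stood for Mki67, Mcm3, Mcm4, Cenpe, Cenpf or Birc5, so the proliferation marker Mki67 is not analysed here.

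The 10 Affymetrix whole-transcript gene arrays each held retinal RNA pooled from 3 rats, which came from 2 litters. There were 4 groups: F344 (Fischer) pups in cyclic hyperoxia (3 pools), F344 pups in room air (2 pools), SD (Sprague Dawley) pups in cyclic hyperoxia (2 pools) and SD pups in room air (3 pools). Exposed litters entered the chamber with their mothers at most 12 hours after birth and alternated daily, in 24-hour periods, between 80% and 21% oxygen, an exposure that precedes oxygen-induced retinopathy. The study set out to compare a strain resistant to this retinopathy (F344) with a susceptible one (SD). Because animals were pooled, the spread between arrays is that between pools and leaves out differences between single rats. According to the design text, the first 8 arrays were examined by principal components, and F344 hyperoxia and SD room air then received 1 further pool each. The pools numbered 3 were taken to be these, which is an inference from the numbering.

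Dividing cells first license replication origins, when CDC6 and CDT1 load the MCM helicase ring on DNA. Cyclin E and cyclin A with their kinases then start S phase, in which CDC45 and the GINS complex turn the ring into an active helicase and PCNA clamps the polymerases. Cyclin B and CDK1 drive entry into mitosis, in which Aurora, Polo and checkpoint kinases, kinesin motors and the anaphase promoting complex separate the chromosomes. In the newborn rat retina progenitor cells still divide and make these transcripts, while cells that have become neurons no longer make most of them. Which cells the transcripts came from was not measured in this whole-tissue RNA.

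The values were log2 expression values, and 38 of the 40 genes lay above the array median (5.9 to 6) in every pool. Markers of retinal progenitors (14 of 15 genes) and of photoreceptors (22 of 26) lay above the median in every pool too. Endothelial markers (12 of 15) and erythroid markers (6 of 7) lay below it in every pool. The first principal component of all probe sets (34.1% of the variance) placed the third pool of F344 hyperoxia at 30.08, that of SD room air at 36.41 and the other arrays between -13.35 and -1.765. For the hyperoxia and strain comparisons, medians and the values that these arrays moved most are therefore also given from a fit with a term for them.

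The cell cycle genes were lower in the pools numbered 3 than in the other pools of the same groups, in F344 hyperoxia and in SD room air alike. The mean over the 40 genes was 8.617 in F344 hyperoxia pool 3 against 8.873 and 8.938 in pools 1 and 2. It was 8.530 in SD room-air pool 3 against 8.928 and 8.970 in pools 1 and 2. In the 4 remaining pools it lay between 8.815 and 8.935, so the lowest values of the series were those of the pools numbered 3. A term for these pools in the model (the shift, pool 3 minus pools 1 and 2 of its group, on the log2 scale with its standard error, SE) had a median of -0.35 over the 40 genes and of 0.00 over all genes. By limma, with p-values adjusted by Benjamini-Hochberg across every probe set, 23 of the 40 fell at an adjusted p under 0.05 and 0 rose, while 8.73% of all genes fell and 7.39% rose. In both groups 29 of the 40 lay below both other pools, against 17.9% of all genes.

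**Figure D1:**
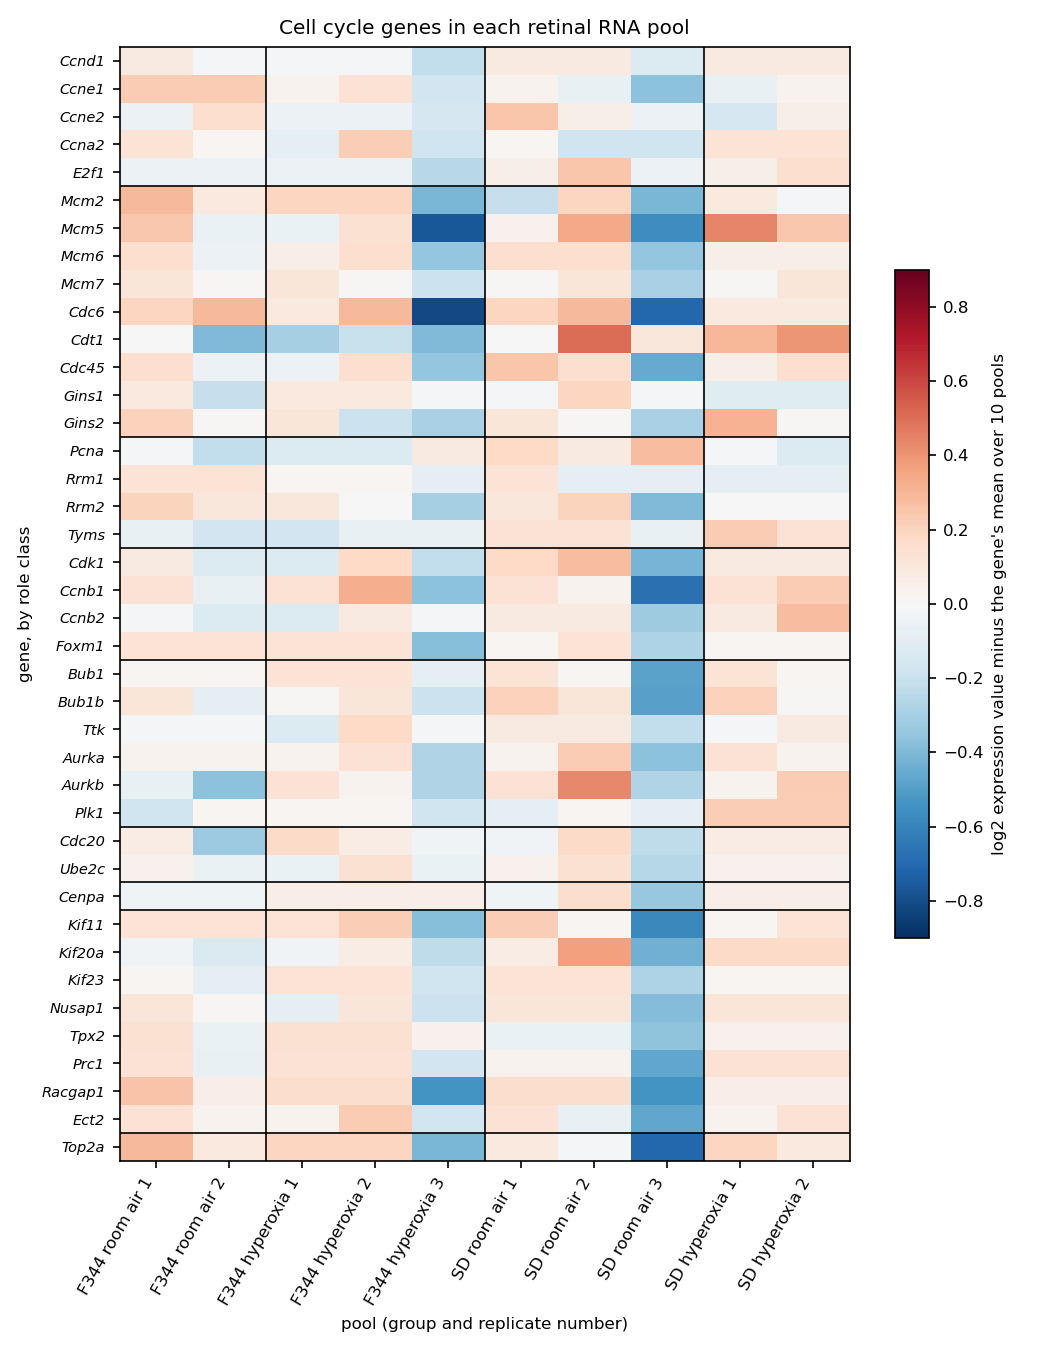
Log2 expression value of each of the 40 measured cell cycle genes in each of the 10 pools, minus the gene's mean over the pools. Rows are genes by role class, columns are pools by group, and blue marks a value below the gene's mean. The columns of the pools numbered 3 are mostly blue (list means 8.617 and 8.530).

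Sequences before the transcription start were taken from RefSeq promoters of the assembly GRCr8. Of the 40 genes 29 had an entry there. Shown are the 2 replication genes and the 2 genes of the mitotic classes with the largest shifts among those with an entry and a match, and Top2a, which stands in a class of its own (chromosome structure), 250 bases before the start, 5′ to 3′ on the gene's strand. Capitals mark exact matches on either strand to the CCAAT box (CCAAT, bound by NF-Y), the CHR element of cell cycle genes (TTTGAA or TTCGAA) and E2F sites (TTTGGCGC, TTTCCCGC, TTTCGCGC, TTTGGCGG or TTTCCCGG).
Mcm5 (GRCr8 chr19:13488563-13488812, plus strand): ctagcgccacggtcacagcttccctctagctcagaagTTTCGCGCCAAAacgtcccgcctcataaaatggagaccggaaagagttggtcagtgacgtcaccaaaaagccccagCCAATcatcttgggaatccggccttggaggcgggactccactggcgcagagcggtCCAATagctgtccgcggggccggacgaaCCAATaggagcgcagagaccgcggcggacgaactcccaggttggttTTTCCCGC
Cdc45 (GRCr8 chr11:95689928-95690177, plus strand): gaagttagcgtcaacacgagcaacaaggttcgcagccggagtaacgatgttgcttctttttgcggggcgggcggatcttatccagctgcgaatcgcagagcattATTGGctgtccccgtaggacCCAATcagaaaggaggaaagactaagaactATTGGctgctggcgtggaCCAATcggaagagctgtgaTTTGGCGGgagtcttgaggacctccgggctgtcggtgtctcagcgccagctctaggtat
Ccnb1 (GRCr8 chr2:33655226-33655475, minus strand): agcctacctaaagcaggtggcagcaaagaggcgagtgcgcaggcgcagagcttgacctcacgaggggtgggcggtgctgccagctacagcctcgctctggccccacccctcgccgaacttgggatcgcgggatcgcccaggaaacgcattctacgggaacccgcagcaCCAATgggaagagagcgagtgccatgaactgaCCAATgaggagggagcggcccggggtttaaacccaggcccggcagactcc
Kif11 (GRCr8 chr1:244536617-244536866, plus strand): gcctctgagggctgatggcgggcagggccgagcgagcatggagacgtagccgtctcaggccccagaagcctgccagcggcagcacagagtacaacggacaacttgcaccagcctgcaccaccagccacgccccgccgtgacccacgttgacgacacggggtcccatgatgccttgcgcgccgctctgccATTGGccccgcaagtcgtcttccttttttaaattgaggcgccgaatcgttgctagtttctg
Top2a (GRCr8 chr10:84473094-84473343, minus strand): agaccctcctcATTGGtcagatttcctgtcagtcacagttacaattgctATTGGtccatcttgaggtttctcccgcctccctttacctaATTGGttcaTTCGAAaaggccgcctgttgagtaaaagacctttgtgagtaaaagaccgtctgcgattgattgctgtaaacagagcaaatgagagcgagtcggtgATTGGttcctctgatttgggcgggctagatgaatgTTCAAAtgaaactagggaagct

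The Mcm5 promoter held 3 CCAAT boxes and 3 E2F matches, of which 2 overlap and the third ends at the base before the start. Cdc45 held 4 CCAAT boxes and 1 E2F match, Ccnb1 2 CCAAT boxes and Kif11 1. Top2a held 4 CCAAT boxes and 2 CHR matches, and the other genes shown held no CHR match in this window. Over the 29 promoters, CCAAT matched in 22 (75.9%), CHR in 12 (41.4%) and E2F in 8 (27.6%), and over the 27457 genes of the table in 34.3%, 17.3% and 3.08%. E2F matches lay in 7 of 12 replication and G1/S promoters (58.3%) and in 1 of 16 mitotic promoters (6.25%), and CHR matches in 3 of 12 (25%) and 8 of 16 (50%). Top2a is counted in neither class. Of the 18 promoters of genes that fell in the pools numbered 3, 13 held CCAAT, 8 CHR and 6 E2F, and of the 11 others 9, 4 and 2. These counts describe letters only, and no binding was measured.

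Among the genes that license and unwind origins, 6 of 9 fell in the pools numbered 3 (median -0.47). The largest shift of all 40 was that of Cdc6, the loader of the MCM ring. Cdc6 read 7.9 and 8.1 in F344 hyperoxia pools 1 and 2 and 7.0 in pool 3, and 8.0 and 8.1 in F344 room air. In SD it read 8.0 and 8.1 in room-air pools 1 and 2, 7.1 in pool 3 and 7.9 in each hyperoxia pool. Every pool numbered 1 or 2 thus lay above the pools numbered 3, whatever its strain or exposure. Cdc6 fell by 0.97 (SE 0.093, 1.97-fold lower, adjusted p = 6.19e-05).

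Mcm5, a subunit of the helicase ring whose promoter is shown above, showed the same order of pools. It read 7.9, 8.1 and 7.2 in F344 hyperoxia pools 1, 2 and 3, 8.2 and 7.9 in F344 room air, 8.0, 8.3 and 7.4 in SD room air, and 8.4 and 8.2 in SD hyperoxia. It fell by 0.78 in the pools numbered 3 (SE 0.12, adjusted p = 0.00129), again with no overlap with the other pools. The other falls were Cdc45 by 0.53 (SE 0.104), Mcm2 by 0.50 (SE 0.117), Mcm6 by 0.47 (SE 0.091) and Mcm7 by 0.30 (SE 0.09). The GINS genes stood at -0.30 (Gins2, adjusted p = 0.11) and -0.10 (Gins1, adjusted p = 0.595). Gins2 read only 5.8 to 6.4 over the pools, near the array median (5.9 to 6), which limits what its differences in any comparison can show. Cdt1, the partner of CDC6, stood at -0.15 (SE 0.139, adjusted p = 0.552), so the MCM loaders did not all pass.

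Of the clamp and nucleotide synthesis genes 1 of 4 fell. Rrm2, the regulated subunit of ribonucleotide reductase, read 10.4, 10.3 and 10 in F344 hyperoxia, 10.5 and 10.4 in F344 room air, 10.4, 10.5 and 9.9 in SD room air and 10.3 in each SD hyperoxia pool. It fell by 0.45 (SE 0.092, adjusted p = 0.00629), and its pools numbered 3 were the lowest of the 10. Rrm1, the other reductase subunit, stood at -0.10 and Tyms, which makes thymidylate, at -0.08. Rrm1 read only 5.8 to 6 in the 10 pools, about the array median (5.9 to 6), which limits what its small shift can show. Pcna was the 1 gene of the 40 above 0, at 0.17 (SE 0.093, adjusted p = 0.25), and it did not pass.

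Of the G1 and S phase cyclins and E2f1, 1 of 5 fell. Ccne1, cyclin E1, read 8.2, 8.3 and 8.0 in F344 hyperoxia, 8.4 in each F344 room-air pool, 8.2, 8.1 and 7.8 in SD room air, and 8.1 and 8.2 in SD hyperoxia. It fell by 0.30 (SE 0.089, adjusted p = 0.0375). All 5 lay below 0: Ccnd1, the D cyclin of retinal progenitors, at -0.20, E2f1 at -0.20, Ccna2 at -0.17 and Ccne2 at -0.15, with adjusted p from 0.138 to 0.394.

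Of the mitotic entry genes 3 of 4 fell. Ccnb1, cyclin B1, read 9.7, 9.9 and 9.2 in F344 hyperoxia, 9.7 and 9.5 in F344 room air, 9.7, 9.6 and 8.9 in SD room air, and 9.7 and 9.8 in SD hyperoxia. It fell by 0.68 (SE 0.101, 1.60-fold lower, adjusted p = 0.00104), with both pools numbered 3 below all others. Cdk1, its kinase, read 8.4, 8.7 and 8.3 in F344 hyperoxia, 8.6 and 8.4 in F344 room air, 8.7, 8.8 and 8.1 in SD room air and 8.6 in each SD hyperoxia pool. Cdk1 fell by 0.45 (SE 0.118, adjusted p = 0.0225). Most of that lay in SD room air (-0.65) rather than F344 hyperoxia (-0.25), a difference that did not pass by limma (adjusted p = 0.958). Foxm1, the transcription factor of mitotic genes, fell by 0.42 (SE 0.087), and Ccnb2 stood at -0.20 (adjusted p = 0.281).

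Of the mitotic kinases and spindle checkpoint genes 4 of 6 fell. Aurkb, the kinase of the chromosomal passenger complex, read 8.1, 8.0 and 7.7 in F344 hyperoxia, 7.9 and 7.6 in F344 room air, 8.1, 8.4 and 7.7 in SD room air, and 8.0 and 8.2 in SD hyperoxia. It fell by 0.45 (SE 0.119, adjusted p = 0.0232), although F344 room-air pool 2 was lower still. The checkpoint kinase gene Bub1b read 8.2, 8.3 and 8.0 in F344 hyperoxia, 8.3 and 8.1 in F344 room air, 8.4, 8.3 and 7.7 in SD room air, and 8.4 and 8.2 in SD hyperoxia. Bub1b fell by 0.45 (SE 0.113), Aurka by 0.42 (SE 0.095) and Bub1 by 0.38 (SE 0.099). Ttk, which starts the checkpoint, stood at -0.17, and the Polo kinase gene Plk1 at -0.12.

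Of the spindle, motor and cytokinesis genes 7 of 8 fell. Racgap1, which positions the cleavage furrow, read 10, 10 and 9.3 in F344 hyperoxia, 10.1 and 9.9 in F344 room air, 10, 10 and 9.3 in SD room air, and 9.9 in each SD hyperoxia pool. It fell by 0.70 (SE 0.089, adjusted p = 4.51e-04), by the same amount in both pools numbered 3. Kif11, the motor that separates spindle poles, read 9.4, 9.5 and 8.9 in F344 hyperoxia, 9.4 in each F344 room-air pool, 9.5, 9.3 and 8.7 in SD room air, and 9.3 and 9.4 in SD hyperoxia. Kif11 fell by 0.63 (SE 0.095, adjusted p = 0.00111), and for both genes the pools numbered 3 were the lowest. The falls of Kif20a, Prc1, Ect2, Kif23 and Nusap1 lay between 0.35 and 0.45. Tpx2, which activates Aurora A, stood at -0.20 (adjusted p = 0.185).

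Top2a, the topoisomerase that untangles replicated chromosomes, read 11.4, 11.4 and 10.8 in F344 hyperoxia, 11.5 and 11.3 in F344 room air, 11.3, 11.2 and 10.5 in SD room air, and 11.4 and 11.3 in SD hyperoxia. It fell by 0.68 (SE 0.095, adjusted p = 7.44e-04), with no overlap between the pools numbered 3 and the rest. The anaphase promoting complex genes did not pass: Cdc20, its activator, stood at -0.22 (SE 0.115, adjusted p = 0.233), and Ube2c, its ubiquitin carrier, at -0.22 (adjusted p = 0.156). Cdc20 read 9.0, 8.9 and 8.8 in F344 hyperoxia, 8.9 and 8.5 in F344 room air, 8.8, 9.0 and 8.6 in SD room air and 8.9 in each SD hyperoxia pool. Cenpa, the centromeric histone, read 7.4 in each F344 hyperoxia pool, 7.3 in each F344 room-air pool, 7.3, 7.5 and 7.0 in SD room air and 7.4 in each SD hyperoxia pool, so its shift of -0.20 (adjusted p = 0.248) came from 1 pool.

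**Figure D2:**
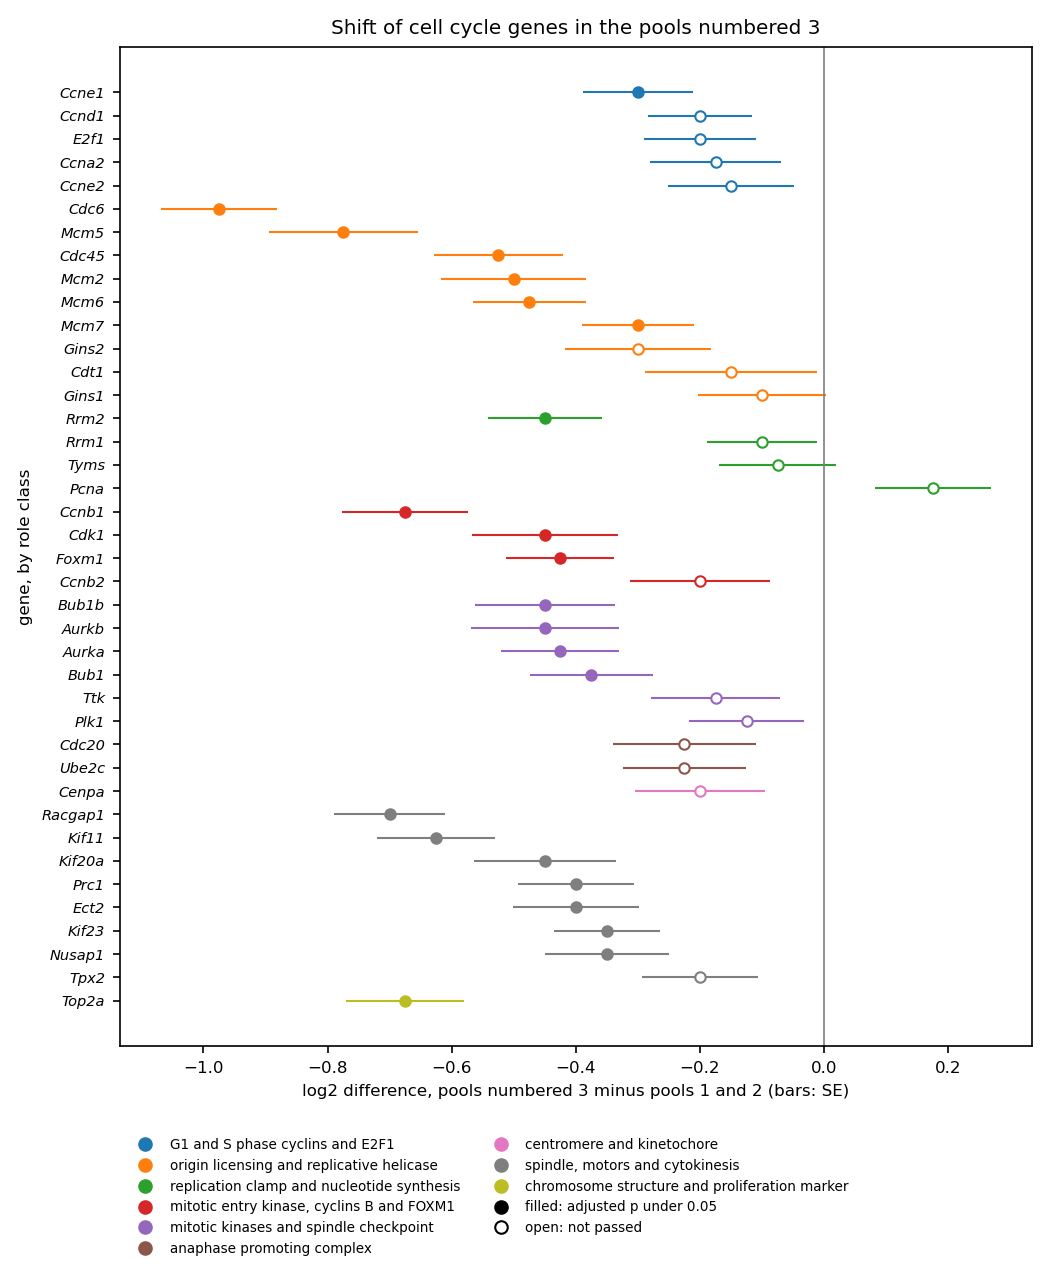
Shift of each of the 40 cell cycle genes in the pools numbered 3, as the log2 difference from pools 1 and 2 of the same groups (horizontal axis, bars are SE, 10 arrays). Filled points passed at an adjusted p under 0.05, colours are role classes. All genes except Pcna lie below 0, from -0.97 for Cdc6.

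The shift was also estimated for each pool numbered 3 alone, as 1 pool against 2, with the spread taken from the remaining pools. In F344 hyperoxia 2 of the 40 fell (Cdc6 and Racgap1) and 0 rose, with a median of -0.25, while 0.44% of all genes fell and 0.97% rose. In SD room air 7 fell (Cdc6, Top2a, Racgap1, Kif11, Ccnb1, Bub1 and Rrm2) and 0 rose, with a median of -0.40, while 1.47% of all genes fell and 1.33% rose. In 36 of the 40 both estimates lay below 0, and in 28 the SD room-air estimate was the lower one. The pools numbered 3 differ in strain and in exposure together, which cannot be told apart here. The difference between both pools passed for 0 of the 40 and for 0% of all genes by limma. An unadjusted p under 0.05 was found for 2 of the 40, Cenpa at -0.40 (SE 0.163) and Bub1 at -0.35 (SE 0.151), and for 577 of all 14324 genes. Each single-pool count dropped to 0 when any 1 of the 8 pools numbered 1 or 2 was left out. The joint count of 23 was 15 when F344 hyperoxia lost its pool 2, 7 when it lost its pool 3, and 2 when SD room air lost its pool 3. The share of all genes that passed in these fits is not given here. Cdc6 and Racgap1 passed without each of the 10 pools in turn, and 13 of the 23 passed without each pool numbered 1 or 2.

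Other genes of the same processes, from lists that hold none of the 46, were counted the same way. Of 41 further replication genes 17 fell and 3 rose in the pools numbered 3 (median -0.25), and of 61 further G2 and mitosis genes 29 fell and 3 rose (median -0.30). Of 20 genes of G1 control and inhibitors 3 fell and 2 rose (median 0.00). Over all genes 8.73% fell and 7.39% rose. The largest falls were those of the checkpoint kinase gene Chek1, by 0.95 (SE 0.116), the exonuclease gene Exo1, by 0.82 (SE 0.106), and the kinetochore gene Kntc1, by 0.82 (SE 0.103). Chek1 read 8.0, 8.3 and 7.2 in F344 hyperoxia, 7.9 and 8.0 in F344 room air, 8.0, 7.7 and 6.9 in SD room air, and 8.0 and 7.8 in SD hyperoxia. The pools numbered 3 were thus the lowest for Chek1 as well. Rpa3, the smallest subunit of the single-strand binding complex, went the other way and rose by 0.92 (SE 0.12, adjusted p = 4.70e-04). It read 9.0, 9.1 and 9.8 in F344 hyperoxia, 9.0 and 8.8 in F344 room air, 9.2, 9.0 and 10.2 in SD room air, and 8.7 and 9.0 in SD hyperoxia. Against its own group, F344 hyperoxia pool 3 had 3 falls (Chek1, Exo1 and Kntc1) and 1 rise (Tipin, of the fork protection complex, by 0.80). In that pool 0.44% of all genes fell and 0.97% rose. For SD room-air pool 3 there were 16 falls, the largest that of the cytokinesis gene Cep55 by 1.05, and 1 rise (Rpa3, by 1.10). There 1.47% of all genes fell and 1.33% rose. The difference between both pools passed for 0 of the 122 by limma, with Gadd45a and Prim1 at -0.70 each.

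Markers of retinal cell types moved in the same pools, in which 7.39% of all genes rose and 8.73% fell. Of 26 photoreceptor genes 8 rose and 1 fell (median 0.19), led by Gngt1, a rod transducin subunit, at 1.38 (SE 0.099), and Pdc, phosducin, at 1.15 (SE 0.083). Of 15 ganglion cell genes 4 rose and 0 fell (median 0.18), led by the neurofilament gene Nefm at 0.78 (SE 0.1) and Nefl at 0.45 (SE 0.127). Of 15 progenitor genes 3 fell and 0 rose (median -0.12), among them the Notch effector Hes5 by 0.45 (SE 0.125) and Notch1 by 0.38 (SE 0.106). The photoreceptor list mean was 8.569 and 8.592 in the pools numbered 3 and 8.092 to 8.396 in the others, so these did not overlap. The progenitor list mean was 8.980 in F344 hyperoxia pool 3, the lowest of all, but 9.147 in SD room-air pool 3, within the range of the others (9.020 to 9.340).

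The lists for other cells of the retina and around it are set beside the calls of all genes (7.39% rose, 8.73% fell). Pigment epithelium genes rose in 4 and fell in 1 of 9, led by Ttr at 1.23 (SE 0.139) and Rgr at 1.15 (SE 0.13). Of 7 lens genes 1 rose, Cryab at 1.15 (SE 0.246), while Cryba1 stood at 1.23 (SE 0.656, adjusted p = 0.257), and the lens list mean was 6.329 in SD room-air pool 3 but 5.414 in F344 hyperoxia pool 3, against 5.043 to 5.857 elsewhere. Endothelial genes rose in 3 of 15 (Ramp2 at 0.65, Emcn at 0.47), microglial genes in 2 of 11 (Aif1 at 0.50, Tyrobp at 0.35) and erythroid genes in 1 of 7 (Hbb at 0.68, with Alas2 at 0.12 not passing). Emcn (4.5 to 5.5), Aif1 (4.9 to 5.8) and Tyrobp (4.8 to 5.3) read below the array median in every pool, which limits what their shifts can show. The median shift was 0.225 for the pigment epithelium list (8 of 9 above 0) and for the endothelial list (14 of 15). For the lens list it was 0.20 (6 of 7 above 0). These medians were no smaller than those of the photoreceptor and ganglion cell lists. The lists with medians of 0.05 to 0.075 were the erythroid, microglial, bipolar, amacrine and horizontal cell, and astrocyte lists. Of 15 amacrine and horizontal cell genes 2 rose (Slc32a1 at 0.40, Calb2 at 0.35) and 2 fell, of 11 bipolar genes 1 rose (Pcp2 at 0.60) and 1 fell (Lhx4 at -0.35), and of 7 astrocyte genes 1 fell (Slc1a3 at -0.53, with Pax2 at 0.28 not passing). Slc1a3 read 8.7 to 9.5 over the pools, while Gfap of the same list read 4.5 to 5 and Aqp4 5.1 to 5.4. Its fall is thus that of 1 gene and does not stand for the astrocyte list. The part of these cell types in the shift of the cell cycle genes was not tested. In whole-tissue RNA, fewer cells of a type and less RNA per cell cannot be told apart.

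**Figure D3:**
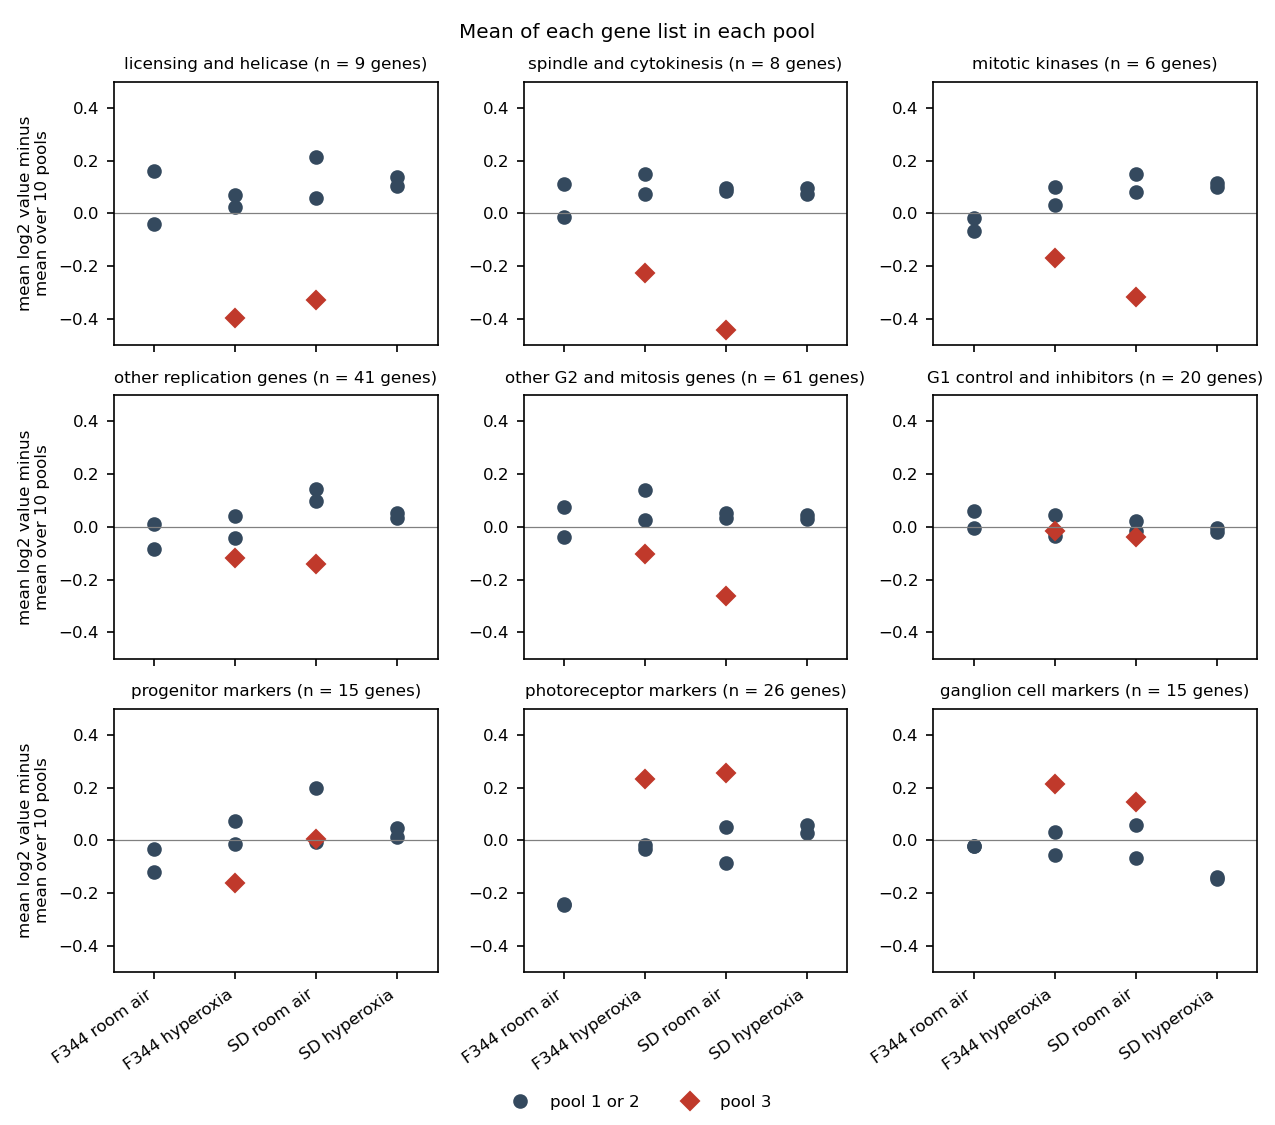
Mean log2 expression value of 9 gene lists in each pool, minus the list's mean over the 10 pools (vertical axis), by group (horizontal axis). Red diamonds are the pools numbered 3 and dark circles pools 1 and 2. Diamonds lie below the circles of their groups for the 3 cell cycle role classes and above them for photoreceptor and ganglion cell markers.

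In SD, no cell cycle gene passed for hyperoxia against room air. Of the 40, 36 lay above 0 with a median of 0.12 (from -0.25 for Pcna to 0.40 for Mcm5), beside a median of 0.00 over all genes. By limma 0 passed, beside 0.0489% of all genes. An unadjusted p under 0.05 was found for 1 of the 40 and for 671 of all 14324 genes. The 3 genes with the smallest p were Plk1, Pcna and Ccna2. Plk1 read 9.5 in each hyperoxia pool and 9.2, 9.3 and 9.2 in room air, a difference of 0.27 (SE 0.11, adjusted p = 0.815), and 9.3, 9.3 and 9.1 in F344 hyperoxia and 9.1 and 9.3 in F344 room air. Pcna read 10.2 and 10.1 in hyperoxia and 10.4, 10.3 and 10.5 in room air, a difference of -0.25 (SE 0.116, adjusted p = 0.815). Ccna2 read 9.7 in each hyperoxia pool and 9.6, 9.4 and 9.4 in room air, a difference of 0.23 (SE 0.129, adjusted p = 0.815), and 9.5, 9.8 and 9.4 in F344 hyperoxia and 9.7 and 9.6 in F344 room air. The pools did not overlap for 4 genes that were higher in hyperoxia (Ccna2, Plk1, Tpx2 and Prc1; 6.67% of all genes) and 2 that were lower (Gins1 and Pcna; 7.34%). Of 15 endothelial markers 14 lay below 0 in the same comparison (median -0.33, and -0.275 with the term for the pools numbered 3). All 7 lens markers lay below 0 as well (median -0.283, and -0.242 with the term). Of 15 ganglion cell markers 11 lay below 0 and 3 above (median -0.183, and -0.108 with the term). The part of these markers in the values was not tested. With the term for the pools numbered 3 Mcm5 stood at 0.14, Plk1 at 0.23, Pcna at -0.19 and Ccna2 at 0.17. The median over the 40 was then 0.02 with 21 above 0. Without SD room-air pool 3 it was -0.03, so the sign of the median rested on that pool.

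In F344, no cell cycle gene passed either, and the median had the opposite sign. Of the 40, 24 lay below 0 and 14 above 0, with a median of -0.07, from -0.38 for Cdc6 to 0.20 for Cdc20. Of the 40, 0 had an unadjusted p under 0.05, beside 704 of all 14324 genes, and 0.00698% of all genes passed by limma. Ccne1, with the smallest p, stood at -0.23 (SE 0.134, adjusted p = 0.921), and none of its hyperoxia pools reached the 8.4 of room air. Gins2 read 6.2, 5.9 and 5.8 in hyperoxia and 6.3 and 6.1 in room air (-0.23, SE 0.157), and Cdc20 stood at 0.20 (SE 0.144). Groups did not overlap for 1 gene that was higher (Cenpa; 6.6% of all genes) and 2 that were lower (Ccne1 and Rrm1; 6.32%). Of 26 photoreceptor markers 24 lay above 0 in the same comparison (median 0.23). Of 15 endothelial markers 14 lay below 0 (median -0.27), as in SD. With the term for the pools numbered 3 these medians were 0.142 and -0.308. The part of these markers in the values was not tested. With the term for the pools numbered 3 Ccne1 and Gins2 stood at -0.13 each, Cdc20 at 0.28 and Cdc6 at -0.06. The median over the 40 then turned to 0.05, and without F344 hyperoxia pool 3 it was 0.03.

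**Figure D4:**
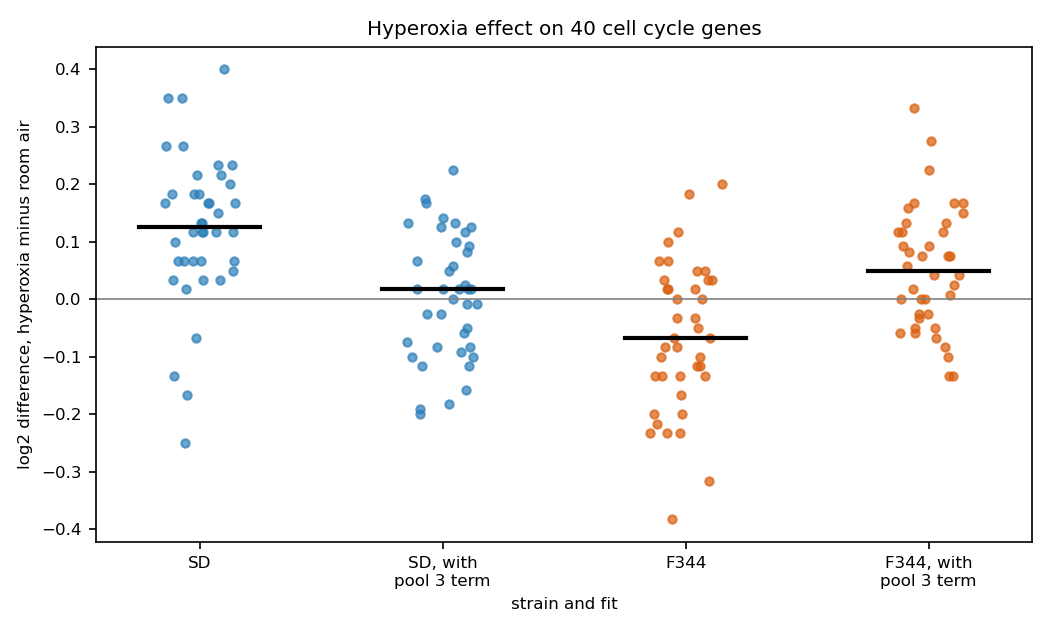
Log2 difference between hyperoxia and room air for each of the 40 cell cycle genes (points) in SD (blue) and F344 (orange), without and with a term for the pools numbered 3, and the median (black line). The medians were 0.12 and -0.07 without the term and 0.02 and 0.05 with it.

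The SD effect minus the F344 effect passed for 0 of the 40 genes and for 0% of all genes by limma. An unadjusted p under 0.05 was found for 0 of the 40 and for 1000 of all 14324 genes. Its median over the 40 was 0.19, beside 0.02 over all genes, and -0.075 with the term for the pools numbered 3. The smallest p were those of Gins2 at 0.45 (SE 0.223), Pcna at -0.32 (SE 0.164) and Mcm5 at 0.72 (SE 0.38), with adjusted p from 0.651 to 0.662. With the term they stood at 0.25, -0.20 and 0.20. Gins2 read 6.4 and 6.1 in SD hyperoxia and 6.2, 6.1 and 5.8 in SD room air.

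Between the strains in room air, 0 of the 40 genes passed by limma, while 0.552% of all genes passed. An unadjusted p under 0.05 was found for 3 of the 40 and for 1637 of all 14324 genes. Ccne1 stood lower in SD, at -0.37 (SE 0.134, adjusted p = 0.326), and Pcna higher, at 0.30 (SE 0.116, adjusted p = 0.357). Pcna read 10.2 and 10 in F344 room air and 10.1, 10.1 and 10.3 in F344 hyperoxia. These were the genes whose strains did not overlap, 1 lower (9.93% of all genes) and 1 higher (10.8%). Cdt1 stood at 0.40 (SE 0.159, adjusted p = 0.372), with 7.6, 8.1 and 7.7 in SD and 7.6 and 7.2 in F344. With the term for the pools numbered 3 Ccne1 stood at -0.27, Pcna at 0.24 and Cdt1 at 0.45. The median over the 40 was -0.07, and 0.05 with the term for the pools numbered 3. Of 26 photoreceptor markers 22 lay above 0 and 4 below (median 0.275, and 0.2 with the term). Of 15 progenitor markers 13 lay above 0 and 2 below (median 0.183, and 0.158 with the term). The part of these markers in the values was not tested.

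In hyperoxia, 0 of the 40 passed between the strains by limma, while 0.475% of all genes passed. An unadjusted p under 0.05 was found for 3 of the 40 and for 961 of all 14324 genes. Cdt1 came closest: it read 7.9 and 8.0 in SD and 7.3, 7.4 and 7.2 in F344, a difference of 0.65 (SE 0.159, 1.57-fold higher in SD, adjusted p = 0.163). Over the alternatives its adjusted p fell under the threshold in 1 fit, with array weights (0.0443), and was at most 0.968. Tyms read 10 and 9.9 in SD and 9.6, 9.7 and 9.7 in F344, beside 9.9, 9.9 and 9.7 in SD room air and 9.7 and 9.6 in F344 room air (0.28, SE 0.107, adjusted p = 0.6), and Plk1 stood at 0.27 (SE 0.11, adjusted p = 0.689). Strains did not overlap for 7 genes higher in SD (Ccnd1, E2f1, Mcm5, Cdt1, Tyms, Plk1 and Kif20a; 8.04% of all genes) and 1 lower (Gins1; 7.34%). With the term for the pools numbered 3 Cdt1 stood at 0.60, Tyms at 0.26 and Plk1 at 0.23. The median of 0.11 turned to -0.04 with the term for the pools numbered 3. Of 15 ganglion cell markers 13 lay below 0 and 1 above (median -0.133, and -0.142 with the term). All 7 lens markers lay below 0 (median -0.25, and -0.1 with the term). The part of these markers in the values was not tested.

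Of the 122 other cell cycle genes measured, 1 passed between the strains and 0 for hyperoxia in either strain. Of all genes 0.552% passed between the strains in room air and 0.475% in hyperoxia. For hyperoxia, 0.0489% of all genes passed in SD and 0.00698% in F344. Prim1, the catalytic subunit of primase, which lays the RNA primers of replication, was higher in SD by 1.47 in room air (SE 0.16, adjusted p = 9.34e-04) and by 1.35 in hyperoxia (SE 0.16, adjusted p = 0.00156). It read 8.9, 8.9 and 9.2 in F344 hyperoxia, 9.1 and 8.7 in F344 room air, 10.5, 10.5 and 10.1 in SD room air, and 10.3 and 10.4 in SD hyperoxia, so the strains did not overlap. With the term for the pools numbered 3 a second gene, Pold2 (a DNA polymerase delta subunit), also passed in room air, at 0.64 (SE 0.114, adjusted p = 0.0131), against 0.60 (SE 0.12, adjusted p = 0.0518) without it. Calls over all 14324 genes also grew with the term, to 137 higher and 79 lower in SD, from 54 and 25 without it. Without a pass were Rpa3 at -0.62 and Cdk4 at 0.48 for hyperoxia in SD, E2f7 at -0.42 and Rpa3 at 0.40 in F344, and Rpa3 at -1.02 and Tipin at -0.78 for the difference of the effects. With the term these stood at -0.31 and 0.34 in SD, -0.26 and 0.09 in F344, and -0.40 and -0.45 for the difference, in the same order.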

How the data were processed

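The arrays measured RNA in 10 pools, whose groups come from the sample titles. The authors deposited log2 values per probe set, to 1 decimal, so small differences move in steps. Per the submitters' processing notes the tools were RMA and Partek 6.4, whose roles these do not state; the scaling step is not given in the sources used here. The number of arrays limits the precision. Of 27342 probe sets, 15097 had 1 gene symbol, 323 several and 11922 none. All entered the fits. In R 4.3.3 with limma 3.58.1, lmFit and eBayes were run two-sided, all probe sets entered the Benjamini-Hochberg adjustment, and 0.05 was the threshold. One model held a mean per group (6 residual degrees of freedom), another added a term for the pools numbered 3 (5), and the last a term for each (4). The fits were tested on simulated data. P-values measure the spread between pools.

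The 46 genes, role classes and lists were chosen with earlier results of these data known; the markers Pax6 and Isl1 stand in more than 1 list. Pool values are given for the genes of each role class with the largest shifts that passed (2 at most, or 1 where none did) and for the 3 smallest p per strain and exposure comparison. Further lists are named by up to 4 genes that passed, or the 2 largest changes, and marker lists by their 2 largest changes. Promoters matched by gene identifier; Ccnd1, Ccne2, Ccna2, E2f1, Cdc6, Rrm2, Foxm1, Aurkb, Ube2c, Tpx2 and Racgap1 had no entry. Alternatives were array weights, median centring, a second quantile normalization, eBayes with trend and robust options, a restriction to brighter probe sets, averaged probe sets, only the groups compared, the term, fits without pools, and the replicate number as a block.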

Additional observations from a re-analysis of the deposited data

How the results depend on the processing

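No call of a single gene changed sign under any alternative run. The joint count of 23 falls in the pools numbered 3 stayed between 23 and 24 under the alternatives that kept all pools, 21 of the 23 genes passing in every one, and ranged from 2 to 23 when 1 pool was left out. Its median of -0.35 was -0.425 with median centring and -0.40 to -0.25 with 1 pool left out. For F344 hyperoxia pool 3 alone, the count of 2 was 8 in the brighter part of the probe sets, 9 with trend and robust eBayes, 5 with repeated quantile normalization, 8 with median centring and 0 to 2 with 1 pool left out. Its median was -0.35 with median centring and -0.30 to -0.20 with 1 pool left out. For SD room-air pool 3 alone, the count of 7 became 18, 20, 12 and 12 under the same 4 alternatives and 0 to 7 with 1 pool left out, and its median was -0.45 with median centring. The median difference of both shifts (-0.15) was -0.10 with median centring and -0.15 to -0.10 with 1 pool left out. The median difference of the hyperoxia effects (0.19) was -0.075 with the term for the pools numbered 3, without these pools and with the replicate block. With array weights 1 gene, Cdt1, passed between the strains in hyperoxia. In the comparison of the pools numbered 3, Ccnd1 also passed with trend and robust eBayes and with repeated quantile normalization (adjusted p = 0.0307 and 0.0314), and Gins2 with the replicate block (0.046). A single-pool shift has no value without that pool. The share of all genes that passed under each alternative is not given here, so the counts above cannot be set beside it. Median centring subtracts each array's median, so within a comparison it moves the log2 differences of all genes alike. That median was 6 in both pools numbered 3 and 5.9 to 6 in pools 1 and 2 of their groups. Fits without a pool hold fewer arrays. Beyond this, the cause of the changes was not tested.

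The replicate number as a block gave the joint count of 23 falls. Pools of the same number did not deviate together in every pair of groups (correlations from -0.073 to 0.643 over all probe sets), so the numbers were not taken to pair the pools. Signal over background was not analysed, and values to 1 decimal limit what small differences can show.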

Other observations

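Of the 122 other cell cycle genes 8 rose in the pools numbered 3, a share no larger than the 7.39% of all genes that rose. Besides Rpa3, these were the kinetochore gene Cenpk at 0.65 (SE 0.116), Cks1b, a small partner of cyclin-dependent kinases, at 0.62 (SE 0.1), the fork protection gene Tipin at 0.50 (SE 0.123), the checkpoint gene Mad2l1 at 0.45 (SE 0.119) and Dut, which clears dUTP, at 0.30 (SE 0.089). Of the G1 genes Ccnd2, a D cyclin, rose by 0.47 (SE 0.104) and E2f5 by 0.38 (SE 0.104), while Cdk2 fell by 0.70 (SE 0.135), E2f7 by 0.47 (SE 0.093) and Cdk4 by 0.42 (SE 0.086). Ccnd2 read 7.1 and 7.0 in the pools numbered 3 and 6.4 to 6.9 in the others. Except for Rpa3 and Tipin, these genes were named after their values were seen.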
